A study of Mus musculus with 18 samples.

Results

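The genes described here encode the subunits of the mitochondrial respiratory chain and ATP synthase that the nucleus supplies. Every gene of the expression table annotated as protein-coding was taken whose name begins with Ndufa, Ndufb, Ndufc, Ndufs or Ndufv and a digit, is Sdha to Sdhd or Cyc1, or begins with Uqcr, with Cox4 to Cox8 or with Atp5. The rule used names only and no measured value. It found 86 of the 54532 genes in the table, of which 37 were placed by name in complex I, 4 in complex II, 9 in complex III, 18 in complex IV and 18 in complex V. Another 12 genes had a matching name but another biotype, mostly pseudogenes, and were left out. Ndufa4 and Ndufa4l2 count under complex I by name, although the NDUFA4 protein is now known as a partner of complex IV. Atp5s, which RefSeq names Dmac2l, likewise counts under complex V by name and was placed in neither its head nor its stalk.

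The respiratory chain of the inner mitochondrial membrane passes electrons from NADH and succinate to oxygen and uses the proton gradient so built to make ATP. Complex I oxidizes NADH, complex II oxidizes succinate, complex III passes electrons from ubiquinol to cytochrome c, complex IV reduces oxygen, and complex V is the ATP synthase. Most of their subunits are encoded in the nucleus and imported, and the remainder come from the mitochondrial genome. In the liver this machinery carries the electrons released by fatty acid oxidation.

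The values came from RNA-seq of whole liver from 18 male C57BL/6J mice (C57BL/6 in the sample labels), 6 in each of 3 groups, fasted overnight before tissue was taken. Animals were 6 weeks old on arrival. NC mice ate normal chow and no SZ-A. HFD mice ate a high-fat diet for 14 weeks and then through the treatment period, on saline instead of SZ-A. SZ-A mice ate the same diet for 14 weeks and then received SZ-A, the alkaloid extract of Ramulus Mori (mulberry twig), while the diet went on. Treatment lasted 8 weeks by the design text, a length that the study's methods give differently, and the dose and route of the sequenced SZ-A mice were not given in the sources used here. One NC library, NC6, carries a high-fat diet in its diet label against its title, and it was kept in NC. The comparisons asked which genes differ between the high-fat and the chow liver, and which of them differ again after SZ-A.

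Levels are FPKM, fragments scaled to the length of a gene's exons and to the size of the library. Fragments on genes ranged from 17163191 to 20493907 per mouse. Hepatocyte markers were high in every group, with a summed FPKM of 29430 to 48440 in HFD. The library NC5 stood apart for the subunit genes. It held the highest value of its group for 66 of the 79 genes tested (83.5%), against 33.6% of all genes tested, and NC1 held the lowest for 52. The median coefficient of variation between NC mice was 15.3% over the 79 genes and 9.23% without NC5. The same medians were 8.88% in HFD and 7.47% in SZ-A. The main results are therefore also given without NC5.

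Nearly all subunits that a liver needs were well expressed. A mean of at least 1 FPKM over the 18 mice, the minimum set for testing, was reached by 79 of the 86 genes and by 10216 genes in all. The median level of the 79 genes was 68.5 FPKM, against 5.13 FPKM over all genes tested. All 37, 4 and 9 genes of complexes I, II and III passed, as did 12 of 18 in complex IV and 17 of 18 in complex V. Cox6a1, the form of subunit VIa outside muscle and heart, had the highest level of complex IV at a mean of 517 FPKM over all mice, and Cox8a followed at 405 FPKM. Atp5a1 and Atp5b, the alpha and beta subunits of the catalytic head, led complex V at 334 and 288 FPKM. Uqcrq led complex III at 199 FPKM, Ndufa4 led the genes under complex I at 189 FPKM, and Sdhd led complex II at 155 FPKM.

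The 7 genes under the minimum were Cox4i2, Cox6a2, Cox6b2, Cox7b2, Cox8b, Cox8c and a second gene named Atp5o. Most of these encode forms that other tissues use. Cox6a2 and Cox8b, of muscle, heart and brown fat, stayed at or under 0.506 FPKM and 1.31 FPKM in every mouse. Cox8c and the second Atp5o (ENSMUSG00000116933) were listed at 0 in all 18 mice. All 530 exon bases of the second Atp5o are shared with other annotated genes, so its listed 0 does not show whether it is expressed. Cox6b2, known from testis, ran from 0.335 to 2.51 FPKM in NC with a median of 0.741, from 0 to 0.428 in HFD and from 0.0494 to 0.497 in SZ-A.

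Relative to the median of all genes tested, subunit genes were slightly lower in HFD than in NC. The amount rested in large part on NC5, and few of the subunit genes passed the test. Among genes of 20 FPKM or more, which include most of the 79, the gap to all genes was smaller, as given below. In limma on log2(FPKM + 0.1) with Benjamini-Hochberg adjustment over all 10216 genes, 4 of the 79 were called (adjusted p under 0.05 together with a change of more than 1.2-fold), all of them lower in HFD. Over all genes tested 20.2% were called, and 9.49% were called lower, so the 4 genes (5.06% of 79) did not exceed the background. The median log2 fold change of the 79 genes was -0.13, against -0.03 for all genes tested, and 64 of the 79 values lay below 0, against 54.9% of all genes tested. In a bulk sample, fewer cells of a type and less RNA per cell cannot be told apart.

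The sign of that small shift depended on the scaling. Each scaling moves all genes of a mouse by nearly the same amount, so it can hardly change their place relative to one another. Scaling each mouse to a common FPKM sum moved the median of all genes tested to 0.15 and that of the subunit genes to 0.07. Whole fragments with library totals (limma voom) put them at 0.12 and 0.03, with 2010 of all genes called higher and 409 lower, and with 3 subunit genes called, Sdha and Ndufs8 higher and Sdhd lower. The subunit genes lay 0.09 below the median of all genes under each of the 4 scalings, and the same number of them, 61 of 79, lay below it each time. Under the common sum, 5 members were called, all higher in HFD (Sdhc, Sdha, Ndufs8, Ndufb3 and Ndufa10), and over all genes the calls moved from 1092 higher and 970 lower to 2100 higher and 334 lower. Without NC5 the subunit genes lay 0.04 below the median of all genes (-0.07 against -0.03), 49 of 79 lay below it, and 4 were called, 3 lower (Sdhd, Ndufs7 and Atp5o) and Cox7a1 higher. Without NC6, the mouse with the contradicting diet label, they lay 0.10 below and 5 were called, all lower. Of all genes tested, 21.0% were called without NC5 and 19.8% without NC6.

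**Figure D1:**
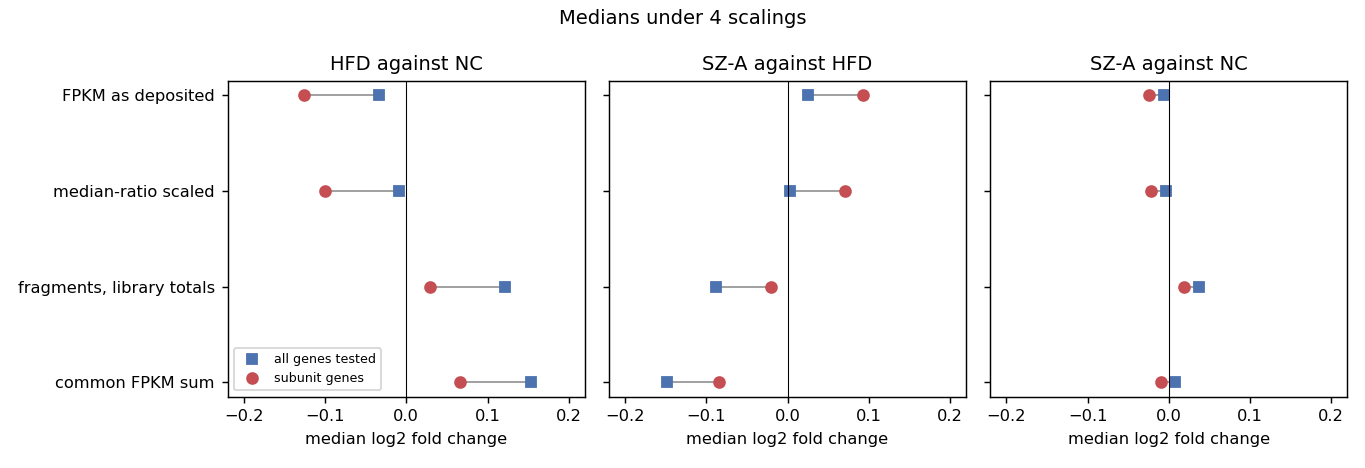
Median log2 fold change (x axis) of the 79 subunit genes (red circles) and of all 10216 genes tested (blue squares) under 4 scalings (rows), for each comparison. Both cross 0 between rows in each panel. The circle stays on the same side of the square, since scaling moves all genes by nearly the same amount.

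Sdhd, the small membrane anchor subunit of succinate dehydrogenase, fell most clearly. Its FPKM ran from 158 to 235 in NC with a median of 180, from 120 to 145 in HFD with a median of 137, and from 127 to 156 in SZ-A with a median of 142. Every HFD mouse lay below every NC mouse, and so did every SZ-A mouse. The log2 fold change in HFD against NC was -0.45 ± 0.10 (SE, n = 6 and 6), with an adjusted p of 0.0061 (limma, Benjamini-Hochberg). It was called in each of the 12 fits that left out 1 mouse, between -0.49 and -0.38. It was called in 10 of 11 other settings, and in the other, the common FPKM sum, the value was -0.26 with an adjusted p of 0.0542. In the files Sdhd (ENSMUSG00000000171) lies at chr9:50596357-50603812 on the minus strand of mm10, and none of its 1231 exon bases is shared with another annotated gene.

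Atp5o encodes the peripheral stalk protein that joins the ATP synthase head to its membrane part. Its FPKM ran from 35.7 to 56.9 in NC with a median of 39.4, from 28.1 to 35.8 in HFD with a median of 31.5, and from 32.8 to 40.8 in SZ-A with a median of 35.1. The lowest NC mouse lay just under the highest HFD mouse. The log2 fold change in HFD against NC was -0.37 ± 0.11 (SE, n = 6 and 6), with an adjusted p of 0.034 in limma. The gene (ENSMUSG00000022956, chr16:91925214-91931687, minus strand) shares 945 of its 1972 exon bases with other annotated genes, 702 of them with genes on the opposite strand, and the sources used here do not say whether counting used strand. Its reads may thus be split with or joined by those of its neighbours.

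Ndufs7 and Ndufv2 encode iron-sulfur proteins of complex I, the first carrying the cluster next to the quinone site and the second working beside the NADH-oxidizing flavoprotein. The FPKM of Ndufs7 ran from 49.6 to 95.6 in NC with a median of 54.96, from 41.9 to 49.5 in HFD with a median of 43.8, and from 44.2 to 57.0 in SZ-A with a median of 49.1. Its highest NC value was that of NC5, and the HFD and NC ranges met without overlapping. The log2 fold change was -0.42 ± 0.14 (SE, n = 6 and 6; adjusted p = 0.045, limma), and it was -0.28 without NC5. The FPKM of Ndufv2 ran from 44.5 to 62.3 in NC with a median of 47.2, from 39.0 to 44.0 in HFD with a median of 41.0, and from 35.7 to 46.6 in SZ-A with a median of 44.5. Its log2 fold change was -0.27 ± 0.09 (SE, n = 6 and 6; adjusted p = 0.046, limma). These were the weakest of the 4 calls, since Ndufs7 was called in 2 and Ndufv2 in 3 of the 12 fits without 1 mouse, and Atp5o in 6 of 12. Under the 11 other settings Ndufv2 was called in 3, Ndufs7 in 6 and Atp5o in 8. All 4 stayed below 0 under each scaling, with values of -0.18 for Atp5o, -0.22 for Ndufs7 and -0.07 for Ndufv2 under the common FPKM sum, where they did not pass.

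In 3 of the 79 genes, Sdhd, Ndufs7 and Ndufv2, all 6 HFD mice lay below all 6 NC mice, which is 3.80% against 4.97% of all genes tested. All 3 of these genes were also among those called.

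**Figure D2:**
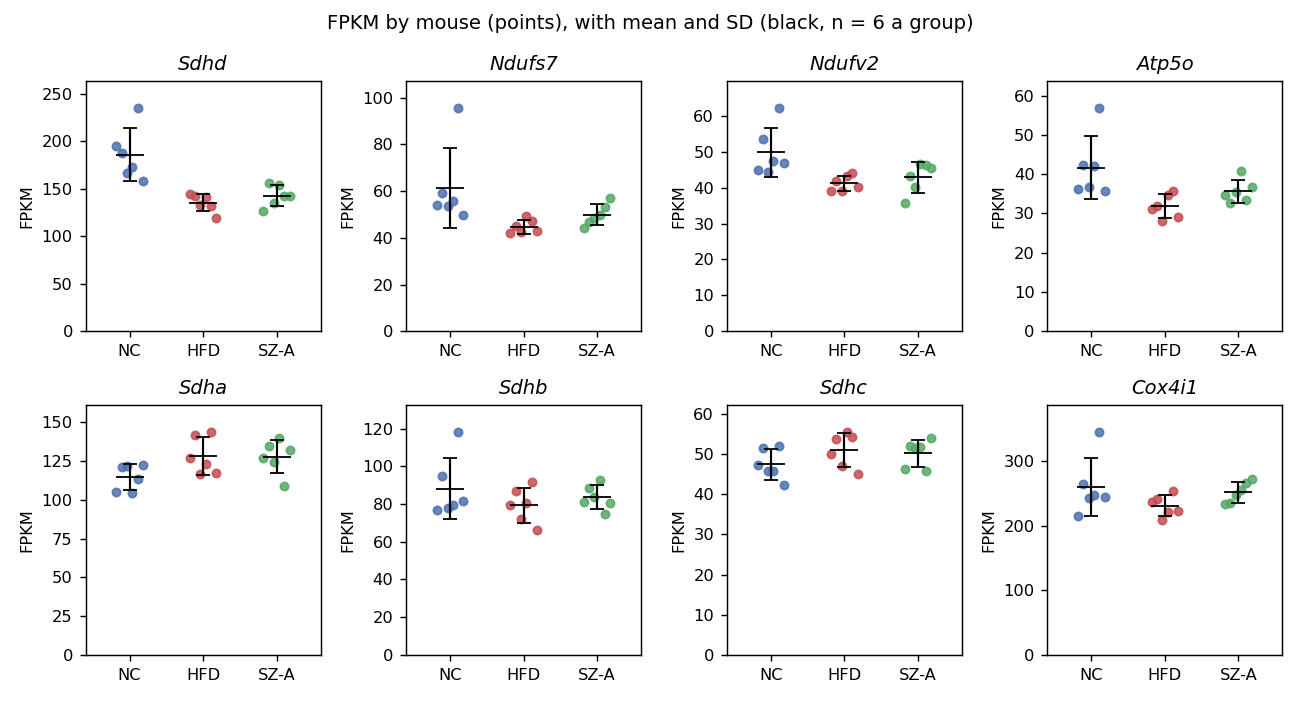
FPKM (y axis, from 0) in each mouse (points) of the 4 subunit genes called in HFD against NC (top row) and, for reference, the other complex II subunits and Cox4i1 (bottom row), with the group mean and SD (n = 6). In the Sdhd panel the HFD points (120 to 145) and the SZ-A points (127 to 156) lie below all NC points (158 to 235), whereas the bottom panels overlap between groups.

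Because these 4 genes carry the calls, the 250 bases before their RefSeq start (GRCm38.p6) are shown, 5′ to 3′ on the gene's own strand. The windows are chr9:50603850-50604099 (minus strand) for Sdhd, chr16:91931631-91931880 (minus) for Atp5o, chr10:80249199-80249448 (plus) for Ndufs7 and chr17:66101560-66101809 (minus) for Ndufv2. The RefSeq start is not always the gene start of the files: the Ndufs7 window and a part of the Atp5o window lie inside the gene as the files place it. Capitals mark exact matches, on either strand, to letters of 6 motifs that are known from promoters of respiratory chain genes or of many housekeeping genes. These were GCATGCGC (NRF1 core), CCGGAAG (ETS factors, GABP among them), AAGATGGC (YY1), TGACGTCA (the cyclic AMP response element), TCAAGGTCA (estrogen-related receptors) and GGGCGG (SP1). None of these strings contains another.
Sdhd: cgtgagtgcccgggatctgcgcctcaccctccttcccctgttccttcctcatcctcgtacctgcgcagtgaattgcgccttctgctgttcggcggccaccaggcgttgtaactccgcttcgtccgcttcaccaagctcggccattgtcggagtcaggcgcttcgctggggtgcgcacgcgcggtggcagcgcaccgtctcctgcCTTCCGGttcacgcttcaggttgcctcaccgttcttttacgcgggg
Atp5o: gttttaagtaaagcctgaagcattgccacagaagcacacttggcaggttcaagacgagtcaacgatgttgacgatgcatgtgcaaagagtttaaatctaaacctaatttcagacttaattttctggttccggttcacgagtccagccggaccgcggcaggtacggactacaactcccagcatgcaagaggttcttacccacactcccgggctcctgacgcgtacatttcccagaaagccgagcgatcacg
Ndufs7: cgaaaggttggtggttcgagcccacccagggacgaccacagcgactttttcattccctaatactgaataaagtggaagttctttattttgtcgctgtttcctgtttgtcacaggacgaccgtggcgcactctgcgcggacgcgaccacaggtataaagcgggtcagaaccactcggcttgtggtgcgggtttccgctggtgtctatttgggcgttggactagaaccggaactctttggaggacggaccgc
Ndufv2: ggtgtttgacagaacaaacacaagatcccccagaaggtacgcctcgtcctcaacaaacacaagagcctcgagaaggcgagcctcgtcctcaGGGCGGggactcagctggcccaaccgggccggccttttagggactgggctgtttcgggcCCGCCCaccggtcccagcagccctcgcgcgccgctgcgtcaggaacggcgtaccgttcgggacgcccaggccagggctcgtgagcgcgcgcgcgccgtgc
In Sdhd the capitals are an ETS match on the other strand, from 46 to 40 bases before the start. In Ndufv2 they are an SP1 match on the given strand, from 159 to 154 bases before, and another on the other strand, from 100 to 95 bases before. The Atp5o and Ndufs7 bases shown held none of these letters.

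Promoter windows reaching from 250 bases before to 50 bases after the start could be matched for 68 of the 85 gene symbols, 66 by symbol and 2 by synonym. The ETS letters were found in 16 of the 68 (23.5%), against 12.9% of the 17492 protein-coding genes with a window. The NRF1 core was in 10 (14.7%), against 3.94%, and the YY1 letters were in 10 (14.7%), against 3.57%. Of the 10 YY1 matches, 1 remained when the 50 bases after the start were left off. The SP1 letters were in 28 (41.2%), against 49.2%, and the cyclic AMP response element was in 4 (5.88%), against 2.54%. The estrogen-related receptor letters were in 2 (2.94%), Sdhd and Atp5g3, against 0.377%. Sdhd also counts for SP1, and its receptor and SP1 letters lie after the start, outside the bases shown for it, as do YY1 letters of Ndufs7. These are counts of letters in a window and were not tested.

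The other genes of complex II did not pass the test. Sdha, the flavoprotein that oxidizes succinate, was at 115 ± 8.37 FPKM in NC, 128 ± 12 in HFD and 128 ± 10.8 after SZ-A (mean ± SD, n = 6), with a log2 fold change of 0.16 in HFD against NC (adjusted p = 0.18, limma). Sdhb, the iron-sulfur subunit, had a log2 fold change of -0.14 (-0.05 without NC5), and Sdhc, the other membrane anchor, had one of 0.10, neither of them called (adjusted p = 0.43 and 0.38, limma). Under the common FPKM sum Sdha and Sdhc were called higher, while Sdhd was still below 0. The level of Sdhd over that of Sdha within a mouse, which does not depend on scaling, was 1.29 to 2.08 in NC with a median of 1.60, 0.918 to 1.14 in HFD with a median of 1.08, and 0.997 to 1.31 in SZ-A with a median of 1.09. The HFD mice did not overlap the NC mice, and 1 SZ-A value reached into the NC range. Against Sdhc the same ratio lay between 3.63 and 4.52 in NC, between 2.44 and 2.90 in HFD and between 2.63 and 3.11 in SZ-A. These ratios were chosen after the values of Sdhd were seen and are given without a test.

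Complex I had a median log2 fold change of -0.12 in HFD against NC over its 37 genes, with 27 below 0 and 2 called. The median was -0.05 without NC5. By module, the median was -0.12 over 10 genes of the NADH-oxidizing module, -0.13 over 6 genes of the quinone-binding module and -0.12 over 19 genes of the membrane module. Ndufv1, which holds the flavin that takes electrons from NADH, was at 59.8 ± 8.86 FPKM in NC, 55.1 ± 5.02 in HFD and 59.8 ± 3.03 after SZ-A (mean ± SD, n = 6), and it was not called (log2 fold change -0.11, adjusted p = 0.45, limma). The core subunits Ndufs1 and Ndufs3 had values of -0.13 and -0.12. Ndufs8 stood at 0.11, and like these it was not called. Without NC5 the values were -0.03 for Ndufv1, -0.11 for Ndufs1, -0.06 for Ndufs3 and 0.17 for Ndufs8. The highest value under complex I was the 0.33 of Ndufa4l2, a relative of Ndufa4 known to rise in hypoxia, which is hardly expressed here (0.576 to 1.80 FPKM in NC and 0.974 to 2.12 in HFD). Its value was 0.18 without HFD1 and 0.50 without NC5.

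Complex III had a median of -0.10 over 9 genes, 8 of them below 0 and none called. The median was -0.23 without NC1 and -0.07 without NC5. Cyc1, cytochrome c1, came closest. It was at 108 ± 9.23 FPKM in NC, 92.8 ± 6.23 in HFD and 99.0 ± 2.13 after SZ-A (mean ± SD, n = 6), with a log2 fold change of -0.22 (adjusted p = 0.054, limma). Uqcrfs1, the Rieske iron-sulfur protein, had a value of -0.23, and Uqcrh, the hinge protein that helps cytochrome c dock, had the lowest of the complex at -0.29. The core proteins Uqcrc1 and Uqcrc2 were at -0.10 (-0.04 without NC5) and -0.03, and Uqcrq was at 0.00 (adjusted p above 0.05 for each, limma).

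Complex IV had a median of -0.13 over 12 genes, 11 of them below 0 and none called. The median was -0.07 without NC5. Cox4i1, the large nuclear subunit, was at 261 ± 44.7 FPKM in NC, 231 ± 16.1 in HFD and 252 ± 15.9 after SZ-A (mean ± SD, n = 6), with a log2 fold change of -0.16 (adjusted p = 0.30, limma). Cox5a and Cox5b had values of -0.11 and -0.17. Without NC5 the values of Cox4i1, Cox5a and Cox5b were -0.08, -0.02 and -0.08. Cox7a2, the form of subunit VIIa found in liver, had the lowest of the complex at -0.29 (adjusted p = 0.057, limma), with 109 to 159 FPKM in NC and 93.0 to 111 in HFD. Cox7a1, the muscle and brown fat form, had the highest at 0.46 (adjusted p = 0.21, limma), at 0.646 to 2.19 FPKM in NC and 1.24 to 2.12 in HFD.

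Complex V had a median of -0.16 over 17 genes, 16 of them below 0 and 1 called. The head subunits Atp5a1 and Atp5b were at -0.10 and -0.21 (adjusted p = 0.40 and 0.077, limma). Atp5b ran from 274 to 340 FPKM in NC, from 244 to 293 in HFD and from 274 to 298 in SZ-A. Over all 5 head genes the median was -0.14, and over 11 genes of the membrane part and stalk it was -0.16. Atp5k, subunit e, was the gene above 0, at 0.10. Named after their values were seen, Atp5h, subunit d of the stalk, had a log2 fold change of -0.34 and Atp5s of -0.33 (adjusted p = 0.066 and 0.057, limma).

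**Figure D3:**
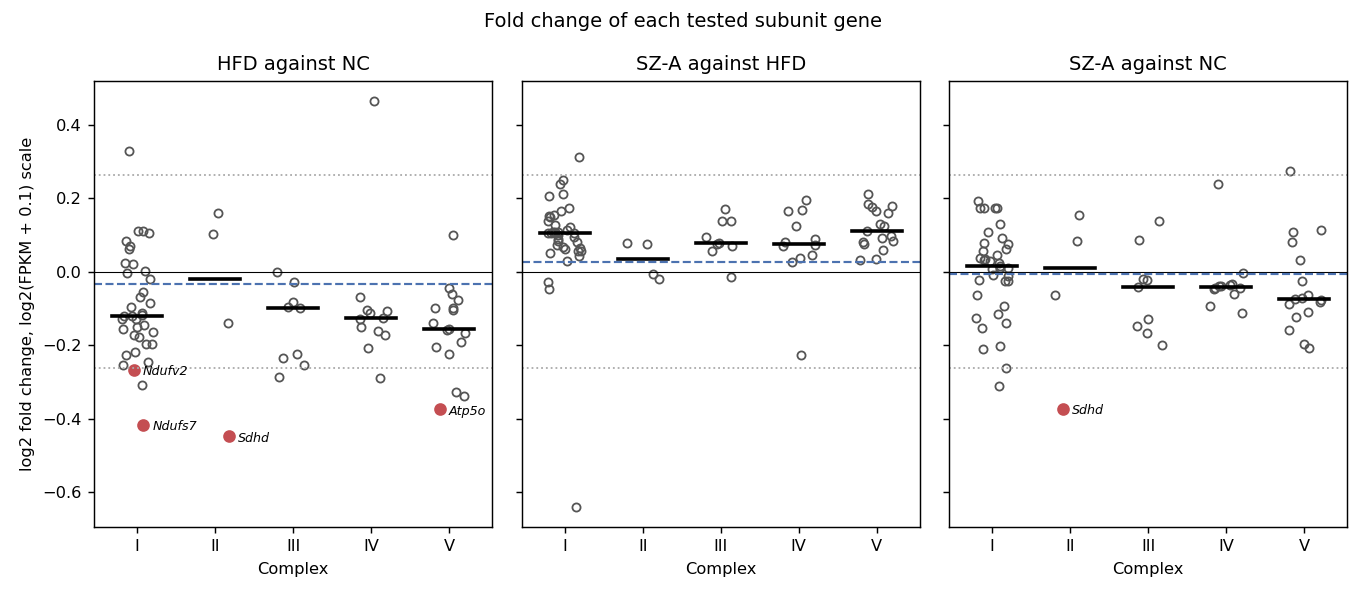
Log2 fold change on the log2(FPKM + 0.1) scale (y axis) of each of the 79 tested subunit genes (circles) by complex (x axis) in each comparison. Red circles are genes called, black bars the median of a complex, the blue dashed line the median of all genes tested and the dotted lines a fold change of 1.2. In HFD against NC 68 of 79 circles lie within the dotted lines, and in SZ-A against HFD 77 do.

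How precisely these differences were measured matters, since a missed threshold does not show that a gene was the same. In HFD against NC the 95% interval of the log2 fold change lay within a fold of 1.5 in either direction for 71 of the 79 genes, and within a fold of 1.2 for 9. An unadjusted p under 0.05 was reached by 15 of the 79, all lower in HFD, against 34.8% of all genes tested.

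Relative to the median of all genes tested, SZ-A livers held slightly more subunit mRNA than HFD livers, and no subunit gene passed the test. Among genes of 20 FPKM or more, which include most of the 79, that gap was small or turned, as given below. In SZ-A against HFD, 0 of the 79 genes and 15 of the 10216 genes tested (0.147%) were called by limma. An unadjusted p under 0.05 was reached by 10 of the 79, all higher in SZ-A, which is near the 14.8% of all genes tested. Limma voom on whole fragments also called 0 of the 79, against 0.666% of all genes tested. The median log2 fold change was 0.09 over the 79 genes and 0.03 over all genes tested, with 72 of 79 above 0 and 71 of 79 above the median of all genes. As before, scaling moved both medians alike, to -0.08 and -0.15 under a common FPKM sum. The subunit genes stayed 0.06 to 0.07 above, a gap that such scaling can hardly change.

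By complex the medians were 0.11 for complex I, 0.03 for complex II, 0.08 for complex III, 0.08 for complex IV and 0.11 for complex V. That of complex IV was 0.04 without SZ-A6, and that of complex II ran from 0.00 without HFD6 to 0.06 without SZ-A5. The 95% interval lay within a fold of 1.2 for 41 of the 79 genes and within a fold of 1.5 for 76, so changes over 1.5-fold lay outside the intervals of nearly all of them. The smallest adjusted p was 0.14, for Atp5j, the coupling factor of the stalk. Its FPKM ran from 42.3 to 48.4 in HFD and from 49.8 to 54.2 in SZ-A, and it was the gene of the 79 whose SZ-A mice all lay above all HFD mice, which held for 0.793% of all genes tested. It is named here after its values were seen. In complex I the highest value was the 0.31 of Ndufa12, an accessory subunit of the NADH-oxidizing module, whose 20.6 FPKM in SZ-A6 stood apart from 5.51 to 9.11 in the other SZ-A mice. Without SZ-A6 its value was 0.05.

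Among the core subunits, Ndufv1 had a log2 fold change of 0.12 in SZ-A against HFD, Cyc1 of 0.09, Cox4i1 of 0.12 and Atp5b of 0.10 (adjusted p = 0.45, 0.48, 0.42 and 0.50, limma). Cox7a2 had the highest value of complex IV at 0.20 (adjusted p = 0.20, limma), and Atp5e, the epsilon subunit of the ATP synthase, that of complex V at 0.21 (adjusted p = 0.23, limma). Uqcr11 had the highest of complex III at 0.17 and Uqcrc2 the lowest at -0.02. In complex II, Sdhb had the highest at 0.08 and Sdhc the lowest at -0.02. The lowest values of complexes I, IV and V were the -0.64 of Ndufa4l2, the -0.23 of Cox7a1 and the 0.03 of Atp5a1, and none of these passed the test. Of the 4 genes lower in HFD, Sdhd was at 0.07, Ndufv2 at 0.06, Ndufs7 at 0.15 and Atp5o at 0.17, and their adjusted p lay between 0.34 and 0.78 in limma.

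Set against NC, SZ-A livers had 1 subunit gene called, Sdhd, at a log2 fold change of -0.37 ± 0.10 (SE, n = 6 and 6; adjusted p = 0.031, limma). Over all genes tested 9.6% were called and 4.3% were called lower. The median over the 79 genes was -0.02, against -0.01 for all genes tested, with 32 above 0 and 47 below. An unadjusted p under 0.05 was reached by 1 of the 79, against 25.5% of all genes tested. By complex it was 0.02, 0.01, -0.04, -0.04 and -0.07 from I to V. Without NC5 the order turned, with medians of 0.05 over the 79 genes and 0.00 over all genes. The call of Sdhd was lost in 5 of the 12 fits without 1 mouse, namely NC1, NC2, SZ-A1, SZ-A3 or SZ-A6, and its value over the 12 fits stayed between -0.42 and -0.30. It was also lost in 2 of 11 other settings, among them no filter on low values. SZ-A against HFD and SZ-A against NC share the SZ-A mice, and the comparisons with NC share the NC mice.

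**Figure D4:**
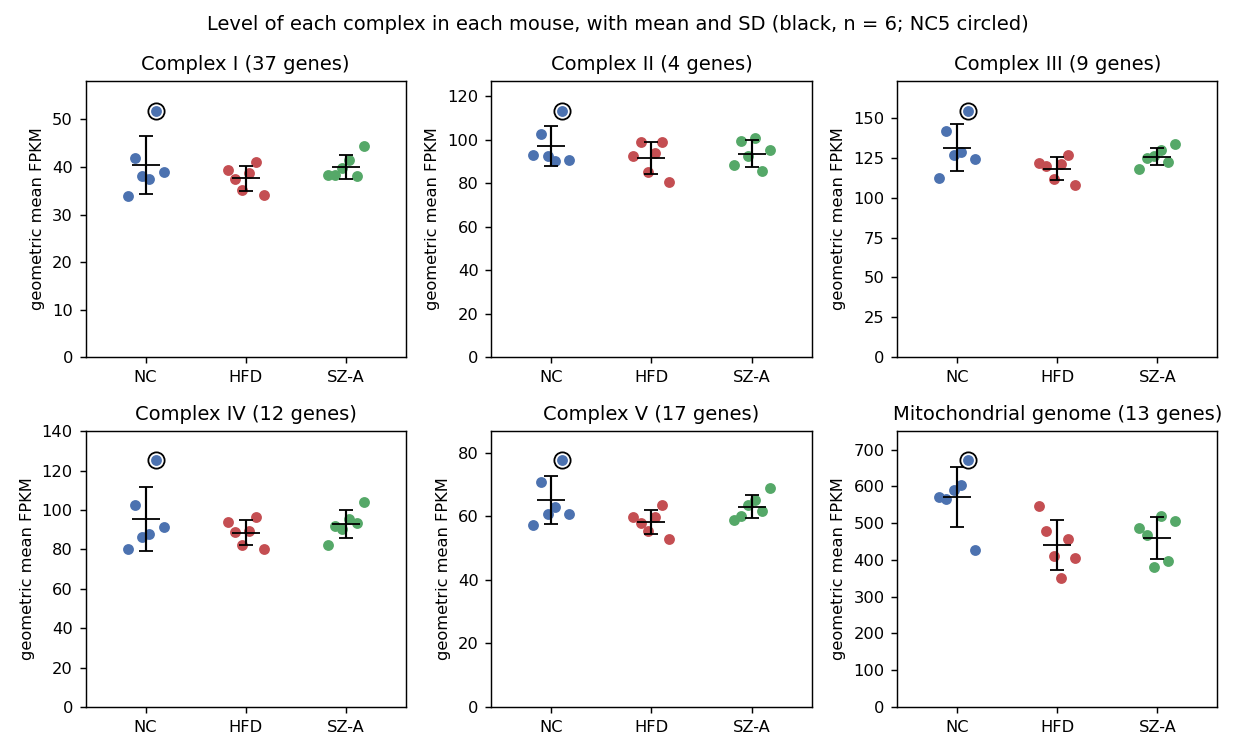
Geometric mean FPKM (y axis, from 0) of the tested genes of each complex and of the 13 subunits of the mitochondrial genome in each mouse (points), with the group mean and SD (n = 6). NC5 is circled: it is the highest NC mouse in all 6 panels, and in each panel the 3 groups overlap. In the mitochondrial genome panel NC meets the other groups through NC6 alone (426 FPKM), the mouse with the contradicting diet label.

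The level of each complex in a mouse, taken as the geometric mean FPKM of its tested genes, overlapped between all groups. For complex I it ran from 34.0 to 51.8 in NC, from 34.0 to 41.1 in HFD and from 38.2 to 44.4 in SZ-A. For complex V it ran from 57.3 to 77.7 in NC, from 52.8 to 63.5 in HFD and from 59.0 to 68.9 in SZ-A. Over all 79 genes the means were 61.0 ± 8.46 in NC, 56.1 ± 3.80 in HFD and 59.7 ± 3.45 after SZ-A (SD, n = 6). Without NC5 the NC mean was 57.9 ± 4.45 (SD, n = 5). Single mice also held many of the extremes in the other groups. HFD5 held the highest value of its group for 39 of the 79 genes and HFD6 the lowest for 43, and SZ-A6 held the highest for 44 and SZ-A1 the lowest for 37.

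**Figure D5:**
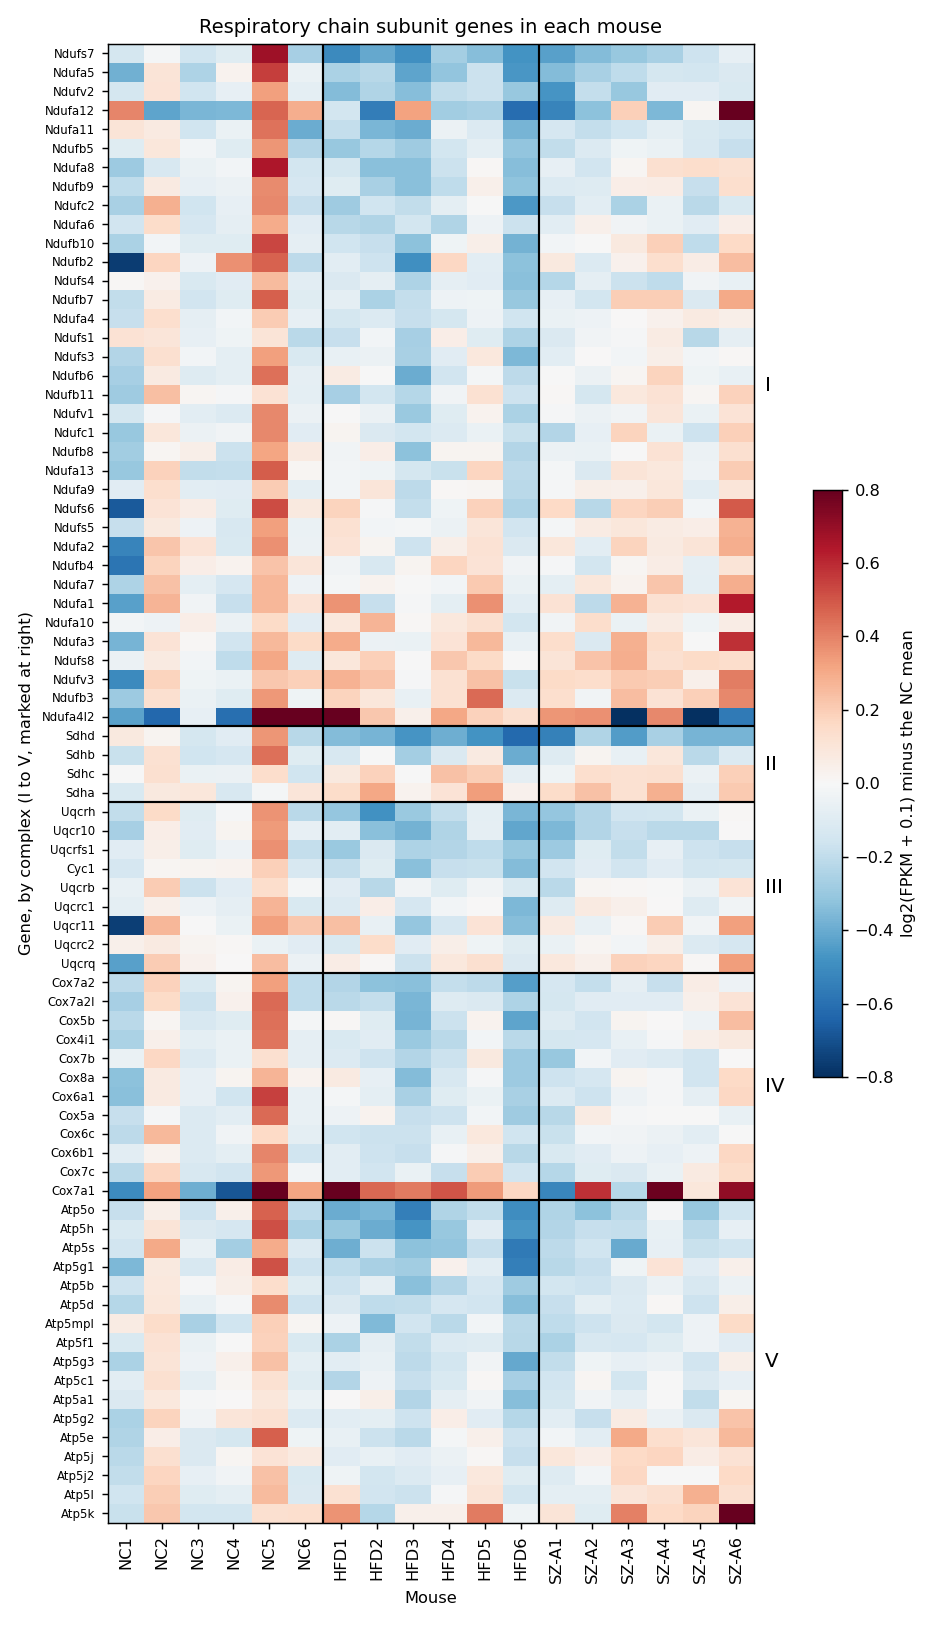
A row for each of 78 of the 79 tested subunit genes, by complex, in each of the 18 mice (columns), coloured by log2(FPKM + 0.1) minus the NC mean, with values beyond 0.8 drawn at the end of the scale. The NC5 column is red in nearly all rows and NC1 mostly blue, the HFD3 and HFD6 columns are mostly blue, and the Sdhd row is blue in all 12 mice on the high-fat diet.

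No ratio between genes paired by name, among them alternative forms of a subunit, passed the test. Of 9 planned pairs, 5 had both genes above 1 FPKM: Cox7a1 to Cox7a2, Cox7a2l to Cox7a2, Ndufa4l2 to Ndufa4, and Atp5g1 and Atp5g2 to Atp5g3, the last a set of genes that encode the same mature ring subunit. In the other pairs (Cox4i2 to Cox4i1, Cox6a2 to Cox6a1, Cox6b2 to Cox6b1 and Cox8b to Cox8a) the tissue-restricted form was under that level. An exact two-sided permutation test of the mean log2 ratio per mouse gave 0 of 15 adjusted p under 0.05. The smallest, 0.097, belonged to Cox7a1 to Cox7a2 in HFD against NC, whose log2 ratio was -6.72 ± 0.51 in NC, -5.97 ± 0.20 in HFD and -6.39 ± 0.57 after SZ-A (SD, n = 6; exact p = 0.0065 before adjustment). It was the single ratio of the 15 with an unadjusted p under 0.05. With a pseudocount of 1 it passed. Markers of brown fat and muscle, 9 genes in all, were also measured. Their summed FPKM lay between 0.34 and 6.84 in NC, between 1.44 and 45.6 in HFD and between 0.0428 and 14.1 in SZ-A, with 2 of the 9 at 0 in NC and in HFD and 6 in SZ-A. Most of that sum was Cidea, at a mean of 0.738 FPKM in NC and 19.1 in HFD, and 1 HFD mouse had Acta1 at 24.1 FPKM. Ucp1 was listed at 0 in every mouse. Of the 9, 2 were tested and Cidea was called. Their part in the ratio was not tested. The differences between groups in the Cox7a2l and Atp5g ratios lay between -0.07 and 0.08, and the Atp5g1 to Atp5g3 log2 ratio stayed between -3.14 and -2.66 in every mouse.

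Of the 13 subunits that the mitochondrial genome itself encodes, 5 were called lower in HFD than in NC (mt-Cytb, mt-Nd1, mt-Nd2, mt-Nd4 and mt-Nd5) and none higher, against 9.49% of all genes tested called lower. Their median log2 fold change was -0.43. These calls are on the deposited FPKM and were not counted under the other scalings. By geometric mean the 13 genes were at 571 ± 80.6 FPKM in NC, 551 ± 71.6 in NC without NC5 and 441 ± 67.9 in HFD (mean ± SD). NC6, the mouse with the contradicting diet label, was at 426 FPKM, and the other NC mice ran from 565 to 671. The highest HFD mouse was at 546 and the highest SZ-A mouse at 520, so only NC6 reached into their ranges. mt-Cytb, the cytochrome b of complex III, was at 7582 ± 781 FPKM in NC, 5610 ± 744 in HFD and 5944 ± 395 after SZ-A (mean ± SD, n = 6; log2 fold change -0.44, adjusted p = 0.018, limma). In SZ-A against HFD 0 of the 13 were called, with a median of 0.05. In SZ-A against NC 3 were called lower (mt-Cytb, mt-Nd1 and mt-Nd5). The ratio of the 79 nuclear to the 13 mitochondrial genes by geometric mean lay between 0.0916 and 0.137 in NC, between 0.107 and 0.164 in HFD and between 0.115 and 0.156 in SZ-A, so the groups overlapped. The highest NC ratio was that of NC6. The other NC mice reached at most 0.1145, below every SZ-A mouse (lowest 0.1148) and below every HFD mouse but HFD1 (0.107). Libraries were made from polyadenylated RNA. Levels of mitochondrial genes with near-identical nuclear copies are uncertain, since reads can match both, among them mt-Co2 at 81.9 to 110 FPKM by group mean.

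Other genes of the pathway, from lists drawn up for the same organelle, gave the following counts in HFD against NC. They are to be read beside the 9.49% of all genes called lower and the 20.2% called in either direction. The lists were counted on the deposited FPKM alone. Over all genes the calls lower went from 970 on that scale to 409 with voom and 334 under the common FPKM sum. Of 14 markers of mitochondrial content, 8 were called lower (Hspa9, Phb2, Phb, Clpp, Timm23, Vdac2, Vdac3 and Tomm20), with a median log2 fold change of -0.31. Of 13 citric acid cycle genes, 3 were lower and 1 higher. Fh1, fumarase, which acts on the product of complex II, fell from 137 ± 31.3 FPKM in NC to 62.9 ± 8.74 in HFD (mean ± SD, n = 6; log2 fold change -1.10, adjusted p = 2.2e-04, limma), Ogdh and Dlst of the oxoglutarate dehydrogenase complex were the others lower, and Suclg2 was higher at 0.68. Of 15 electron carriers, exchangers and subunits outside the naming rule, 3 were lower (Cycs, the cytochrome c itself, at -0.47, Etfdh at -0.33 and Slc25a3 at -0.37) and Ucp2 was higher at 0.64. Of 11 regulators tested, Tfb2m, a mitochondrial transcription factor, was lower at -0.29, and Ppargc1a had the largest value at -0.72 without being called (adjusted p = 0.10, limma). Of 14 complex I assembly factors 0 were called by limma, with 3 at an unadjusted p under 0.05 and the largest value, 0.47, at Ndufaf5 (adjusted p = 0.073). Of 26 tested assembly factors of complexes II to V, Uqcc2 was higher at 0.42. In SZ-A against HFD none of these 6 lists had a called gene.

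Markers of other liver cells moved in the same comparison. In HFD against NC, 4 of 8 Kupffer cell and macrophage markers and 6 of 8 stellate cell and fibroblast markers were called higher, and 2 of 8 hepatocyte markers, Apoa1 and Tat, were called lower. Of 7 endothelial markers 2 were higher, of 6 adipocyte markers the 2 tested were higher, and Cidea was higher among the 2 tested brown fat and muscle markers. No cholangiocyte, B cell or red blood cell marker was called, and no T cell marker reached the minimum level. In SZ-A against HFD 1 marker of all these lists, Cd68 of macrophages, was called, and it was lower. The summed FPKM of the macrophage list lay between 129 and 262 in NC, between 246 and 376 in HFD and between 220 and 303 in SZ-A, and no marker of it was at 0. That of the stellate list lay between 39.0 and 54.3 in NC, between 44.8 and 101.1 in HFD and between 41.4 and 59.8 in SZ-A. The hepatocyte list summed to 42780 to 60820 in NC and 35570 to 60200 in SZ-A. Their part in the lower subunit values was not tested.

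The values were also set beside those of genes of like length and level. The median length of the 79 genes was 1675 bases, against 3808.5 bases over all genes tested. In HFD against NC the 851 tested genes under 1000 bases had a median log2 fold change of -0.12, and the 19 subunit genes among them one of -0.10. From 1000 to under 2000 bases the medians were -0.04 over 1352 genes and -0.17 over 30 subunit genes. From 2000 to under 4000 bases they were -0.01 over 3159 and -0.11 over 20, and from 4000 bases up they were -0.04 over 4854 and -0.15 over 10. By level, the medians were -0.02 over 8301 genes and -0.13 over 11 subunit genes from 1 to under 20 FPKM. From 20 to under 100 FPKM they were -0.07 over 1419 genes and -0.11 over 42 subunit genes. At a mean of 100 FPKM or more, the median was -0.12 over 496 genes and -0.13 over 26 subunit genes. In SZ-A against HFD the 496 genes had a median of 0.14 and the 26 subunit genes one of 0.09. The genes under 1000 bases had one of 0.11, against 0.09 for the 19 subunit genes. From 20 to under 100 FPKM the medians were 0.08 over all genes and 0.09 over the 42 subunit genes. From 1 to under 20 FPKM they were 0.01 over all genes and 0.11 over the 11 subunit genes.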

How the data were processed

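RNA was poly-A selected, built with NEBNext Ultra and sequenced. Per the labels, reads were mapped with HISAT2 2.0.5 to mm10 and counted with featureCounts 1.5.0-p3. The authors deposited FPKM per gene in 1 table. FPKM times length gave whole fragments for 100% of values (tolerance 0.05), and the library size in the FPKM was 0.933 to 1.14 times the fragments on genes. Summed FPKM was 353950 to 424830 in HFD and 402440 to 489190 in NC. Each pair of groups was fitted with limma 3.58.1 (R 4.3.3, eBayes with trend) on log2(FPKM + 0.1) over genes whose mean FPKM reached 1. Calls needed an adjusted p under 0.05 together with a change of more than 1.2-fold. Fold changes are on that scale and understate those of low genes. Ratios were tested in scipy 1.17.1 by exact permutation. Titles gave groups, and nothing says that replicates shared a litter or cage. Named were called members, extremes of each complex, core subunits, isoform pairs and genes under the minimum. Members, gene lists and marker lists were chosen with earlier results of these data known. The fits were tested on simulated data. Exons came from GENCODE M21, whose exon length matched the file for 80 of 86 genes. Alternatives are given at the end. One subunit gene enters the counts and medians but is not reported here by name.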

Additional observations from a re-analysis of the deposited data

Results flagged for a closer look

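The check covered 129 combinations of a group with a named subunit gene, a complex level or the level of all subunit genes. In 11, all of them single genes, 1 mouse stood apart from the nearest other. Its gap took up more of the group's range than Dixon's 95% critical value for 6 mice. Chance gives about 1 in 20. NC5 accounted for 8 of the 11, SZ-A6 for 2 and HFD1 for 1.

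In NC5 the Ndufs7 level was 95.6 FPKM, against 49.6 to 59.1 FPKM in the other NC mice. That of Atp5o was 56.9 against 35.7 to 42.4 FPKM. Sdhd and Ndufv2, the other genes called lower in HFD, also had their highest NC value in NC5 (235 and 62.3 FPKM). Also in complex I, Ndufv1 was at 77.5 against 53.8 to 59.0 FPKM. In complex IV, Cox4i1 was at 346 against 216 to 265 FPKM, Cox5a at 61.0 against 39.3 to 44.2 FPKM, Cox5b at 98.1 against 62.1 to 72.9 FPKM and Cox6b1 at 255 against 174 to 198 FPKM. In complex V, Atp5e was at 107 against 64.9 to 79.7 FPKM.

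In SZ-A6 the Ndufa12 level was 20.6 FPKM, against 5.51 to 9.11 FPKM in the other SZ-A mice, and that of Cox6b1 was 218 against 178 to 189 FPKM. In HFD1 Ndufa4l2 was at 2.12 FPKM, against 0.974 to 1.19 FPKM in the other HFD mice.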

How the results depend on the processing

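In HFD against NC the number of subunit genes called, 4, became 2 without the trend in eBayes, 2 with no filter on low values, 2 with median-ratio scaling, 8 with all 18 mice in 1 fit and 0 at a fold change over 2. It ran from 1 to 5 when 1 mouse was left out, with 1 without NC2, HFD1, HFD2, HFD3 or HFD6. The 8 added Cox7a2, Atp5s, Atp5h and Uqcrh. With no filter, Cox6b2 was called lower at -1.85. Of all genes, 19.8% were called without the trend, 6.96% with no filter, 19.6% with median-ratio scaling and 22.2% with all 18 mice. That share was 16.1% to 21.0% with 1 mouse left out. The median log2 fold change of the subunit genes was 0.0665 under a common FPKM sum and ran from -0.16 without NC1 to -0.07 without NC5. In SZ-A against HFD the count stayed at 0 under every alternative run, and 0% to 2.28% of all genes were called in the refits. The median of the subunit genes was -0.0848 under a common FPKM sum and -0.0199 with voom on whole fragments. It was 0.07 to 0.12 with 1 mouse left out. In SZ-A against NC the count of 1 became 0 with no filter, with the replicate block and at a fold change over 2, and it was 0 or 1 with 1 mouse left out. One isoform ratio passed in HFD against NC with a pseudocount of 1. With the 250 upstream bases alone, the YY1 and estrogen-related receptor letters were each found in 1 gene.

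Mice with the same number did not deviate together (correlations from -0.117 to 0.292), and the numbers share nothing else. The replicate block called 5 subunit genes in HFD against NC and 0 in SZ-A against HFD, against 16.1% and 0% of all genes tested. Across single named genes, 49 values lost a call under an alternative and 12 gained one. Another 77 stayed uncalled but moved by at least the SD between mice. The remaining 2409 kept their call, or stayed uncalled and moved by less. The causes were not tested. Sequencing depth was alike across mice. The spread between 6 mice includes counting noise, whose share was not measured for genes at low levels.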

Other observations

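In the HFD and SZ-A groups the subunit genes varied less between mice than genes at large. The median coefficient of variation was 8.88% over the 79 genes in HFD, against 13.2% over all genes tested, and 7.47% in SZ-A, against 13.4%. In NC the medians were 15.3% and 15.9%, and without NC5 they were 9.23% and 11.8%. Subunit genes have higher levels than most genes, and no matched set was drawn.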
